A study of Mus musculus with 6 samples.

Results

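The neocortical layer markers described here are 9 genes, taken by symbol from a deposited table of 31838 mouse genes: Lamp5, Cux2, Rorb and Rspo1 for the upper layers, Fezf2, Etv1, Tbr1 and Foxp2 for the deep layers, and Ighm, which was grouped with them but belongs to no layer. All 9 were found, and all 9 were among the 20428 genes that passed the filter on low counts. The set was chosen by what layer genes are known for and with earlier results of these libraries in view, among them the high FPKM values of several of these genes in 1 treated library. Their values by library and by group are therefore a description and support nothing by themselves. The libraries hold polyadenylated RNA of wild type C57BL/6 mice, 4 months old, from tissue labelled as hippocampus. The control group had corn oil (3 libraries), and the treated group had butyl benzyl phthalate (BBP), a phthalate plasticiser, at 50 mg/kg/day (3 libraries). The labels give neither the sex of the mice, the route and length of dosing, the vehicle of the BBP dose nor whether each library is a separate animal, so any p-value measures the spread between these libraries, which may be technical. The genes ask how much neocortex each library held, since the cortex lies over the hippocampus and is removed from it during dissection.

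The neocortex is built in layers whose excitatory neurons differ in their targets. Neurons of the upper layers connect cortical areas with one another, and layer 4 receives input from the thalamus. Neurons of layer 5 project to the brainstem, spinal cord and striatum, and many neurons of layer 6 project back to the thalamus. Each layer is set up by transcription factors, of which Cux2, Rorb, Fezf2, Etv1, Tbr1 and Foxp2 are widely used as markers. None of them is restricted to the neocortex, and several are also expressed in the hippocampal formation or the striatum.

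The estimated counts summed to between 62477604 and 68422361 per library. Markers of hippocampal fields were present in all 6 libraries. C1ql2, of dentate granule neurons, ranged from 9.89 to 26.6 FPKM (fragments per kilobase of transcript, scaled to library size). Mpped1, of CA1 neurons, ranged from 44.9 to 51.4 FPKM, and Bok, of CA3 neurons, from 18.5 to 36.6 FPKM. Over all genes above a minimum count in the 2 libraries compared, BBP library 2 differed most from the rest. The chi-square per degree of freedom, on counts divided by 4, was 27 to 40 between BBP library 2 and each other library. It was 14.1 to 21.8 for BBP library 1 with the libraries other than BBP library 2, and 3.88 to 11.6 among the other 4. The share of counts from mitochondrial genes was 11.5% in BBP library 2, with 7.11% to 8.57% elsewhere. BBP library 1 had the lowest C1ql2 and Bok of the 6 libraries, Bok being nearly as low in BBP library 2 (18.9 FPKM). The layer genes stood apart in BBP library 1, and group differences are given with and without either of these libraries.

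The promoters of 3 genes that were high together in BBP library 1, Lamp5, Rorb and Rspo1, are shown beside that of Fezf2, which was not high there. Each run is the part of RefSeq's promoter window (GRCm38.p6, the assembly that mm10 names) that lies before both the RefSeq start site and the start of the gene in the deposited table, 5′ to 3′ on the strand of the gene, with CG dinucleotides in capitals. The runs lie at chr2:136052089-136052238 on the plus strand (Lamp5), chr19:19111197-19111446 on the minus strand (Rorb), chr4:124986180-124986429 on the plus strand (Rspo1) and chr14:12345960-12346115 on the minus strand (Fezf2).
Lamp5: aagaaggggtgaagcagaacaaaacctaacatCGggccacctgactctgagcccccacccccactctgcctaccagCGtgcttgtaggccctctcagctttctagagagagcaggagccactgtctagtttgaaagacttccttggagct
Rorb: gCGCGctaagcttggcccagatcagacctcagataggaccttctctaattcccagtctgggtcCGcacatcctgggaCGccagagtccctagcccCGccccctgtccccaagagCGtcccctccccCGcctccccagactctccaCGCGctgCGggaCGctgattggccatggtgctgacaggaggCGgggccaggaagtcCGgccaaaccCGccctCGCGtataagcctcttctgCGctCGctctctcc
Rspo1: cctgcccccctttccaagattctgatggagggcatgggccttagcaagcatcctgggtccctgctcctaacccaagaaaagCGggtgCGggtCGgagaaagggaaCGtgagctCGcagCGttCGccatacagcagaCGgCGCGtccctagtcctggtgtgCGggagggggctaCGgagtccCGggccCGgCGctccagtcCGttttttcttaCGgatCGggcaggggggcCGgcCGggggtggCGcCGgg
Fezf2: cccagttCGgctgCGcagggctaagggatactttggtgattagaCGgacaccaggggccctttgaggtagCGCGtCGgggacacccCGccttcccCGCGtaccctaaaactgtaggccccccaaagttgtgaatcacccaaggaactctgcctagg

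The 150 bases before Lamp5 held 2 CG dinucleotides, against 18 in the 250 bases before Rorb, 22 in the 250 before Rspo1 and 9 in the 156 before Fezf2. In these runs, of unequal length, Lamp5, Rorb and Rspo1 thus did not share a CG-rich or a CG-poor promoter. RefSeq windows, from 250 bases before to 50 bases after a start site, were matched by symbol for 7 of the 9 genes (11 windows, since 4 genes have more than 1). Over whole windows of 300 bases, Lamp5 had 3 CG dinucleotides at its first start site, Rorb 20, Rspo1 29, Fezf2 20, Cux2 48, Tbr1 7 and Etv1 12. The median of all 32851 windows was 7.

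Binding motifs of the factor families to which 5 of these genes belong were searched in the 11 windows on both strands. The ROR motif AGGTCA was in 0 of 11 windows (16.3% of all windows), the T-box motif GGTGTGA in 0 (3.98%), the ETS motif CCGGAAG in 0 (8.86%) and the forkhead motif TGTTTAC in 0 (3.65%). The Cux motif ATCGAT was in 1 window (0.925% of all), 72 bases before the second start site of Cux2, and overlapped a TATAAA motif there by 1 base. TATAAA was in 2 windows (13.6% of all), those of the second start sites of Cux2 and Etv1. None of these motifs was in the runs printed above.

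In mm10, Lamp5 lies on chromosome 2 from 136052239 to 136069917 on the plus strand, with 6 exons in its longest transcript. Cux2 lies on chromosome 5 from 121856366 to 122050102 (minus, 23 exons), Rorb on chromosome 19 from 18930605 to 19111196 (minus, 10 exons) and Rspo1 on chromosome 4 from 124986430 to 125009099 (plus, 6 exons). Fezf2 lies on chromosome 14 from 12342094 to 12345959 (minus, 4 exons), Etv1 on chromosome 12 from 38779380 to 38870484 (plus, 13 exons), Tbr1 on chromosome 2 from 61802930 to 61814114 (plus, 6 exons) and Foxp2 on chromosome 6 from 14901349 to 15441977 (plus, 19 exons). Ighm is annotated as an immunoglobulin constant gene on chromosome 12 from 113418558 to 113422730 (minus, 6 exons). Of the 9 genes, 8 had the same coordinates in GENCODE M21, the exception being Fezf2. Cux2 and Rspo1 overlap annotated antisense genes, 2 for Cux2 and 1 for Rspo1, and these 3 had at most 0.103 FPKM in any library.

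The 4 upper layer genes were each highest in BBP library 1 and second highest in corn oil library 3. Lamp5, a membrane glycoprotein related to the lysosome-associated membrane proteins, marks layer 2/3 neurons and a class of cortical interneurons. It stood at 14.6, 16.6 and 20.7 FPKM in corn oil libraries 1 to 3 and at 64.5, 14.9 and 15.3 FPKM in BBP libraries 1 to 3. BBP library 1 was thus 4.23 times the median of the other 5 libraries, while BBP libraries 2 and 3 lay within the range of the corn oil group. In bulk tissue, more cells of a type and more RNA per cell cannot be told apart.

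Cux2, a homeodomain transcription factor of layers 2 to 4, had 2.23, 2.40 and 3.47 FPKM in the corn oil libraries and 6.21, 2.34 and 2.48 FPKM in the BBP libraries. Rorb, an orphan nuclear receptor that marks layer 4, had 1.31, 1.40 and 1.65 FPKM in corn oil and 3.62, 1.5 and 1.36 FPKM in BBP. For both genes BBP library 1 was 2.59 times the median of the other 5 libraries. The corn oil and BBP ranges overlapped for both.

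Rspo1, a secreted R-spondin that enhances Wnt signalling and marks layer 4 neurons, had the largest contrast of the 9 genes. It was at 0.275, 0.225 and 0.633 FPKM in corn oil libraries 1 to 3 and at 4.35, 0.232 and 0.276 FPKM in BBP libraries 1 to 3. BBP library 1 was 15.8 times the median of the others, and 6.87 times corn oil library 3, the next highest. These levels rest on 32 to 95 deposited counts in the other 5 libraries and on 596 in BBP library 1. Of all genes tested, 0.0636% had a higher ratio of BBP library 1 to the corn oil mean.

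The deep layer genes split into 2 pairs. Tbr1 and Foxp2 were highest in BBP library 1, whereas Fezf2 and Etv1 were lowest there. Tbr1, a T-box transcription factor of layer 6 neurons, had 9.40, 9.50 and 11.3 FPKM in corn oil and 20.9, 11.8 and 9.56 FPKM in BBP, so that BBP library 1 was 2.19 times the median of the other libraries. Foxp2, a forkhead factor of layer 6 neurons that striatal neurons also express, was the lowest of the 9 genes, at 0.0613, 0.111 and 0.234 FPKM in corn oil and 0.691, 0.104 and 0.101 FPKM in BBP. Its counts were 71 to 292 in the other 5 libraries and 800 in BBP library 1, which was 6.64 times their median level.

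Fezf2, the zinc finger factor that specifies layer 5 neurons with subcerebral targets, had 12.5, 12.8 and 11.5 FPKM in the corn oil libraries and 11.1, 17.2 and 15.3 FPKM in the BBP libraries. Etv1, an ETS factor of layer 5, had 7.94, 7.71 and 6.80 FPKM in corn oil and 5.95, 7.34 and 8.80 FPKM in BBP. BBP library 1 stood at 0.867 times the median of the other 5 libraries for Fezf2 and at 0.771 times for Etv1. These genes also differed from the rest in corn oil library 3, which had the lowest value of the corn oil group for each of them and the highest value of that group for the other 6 layer genes. In BBP library 1 and corn oil library 3, Fezf2 and Etv1 thus ran against the other 6 layer genes of the set. This did not hold in BBP library 2, where Fezf2 (17.2 FPKM) and Tbr1 (11.8 FPKM) were both above every corn oil library. Etv1 and Foxp2 lay within the corn oil range there.

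**Figure D1:**
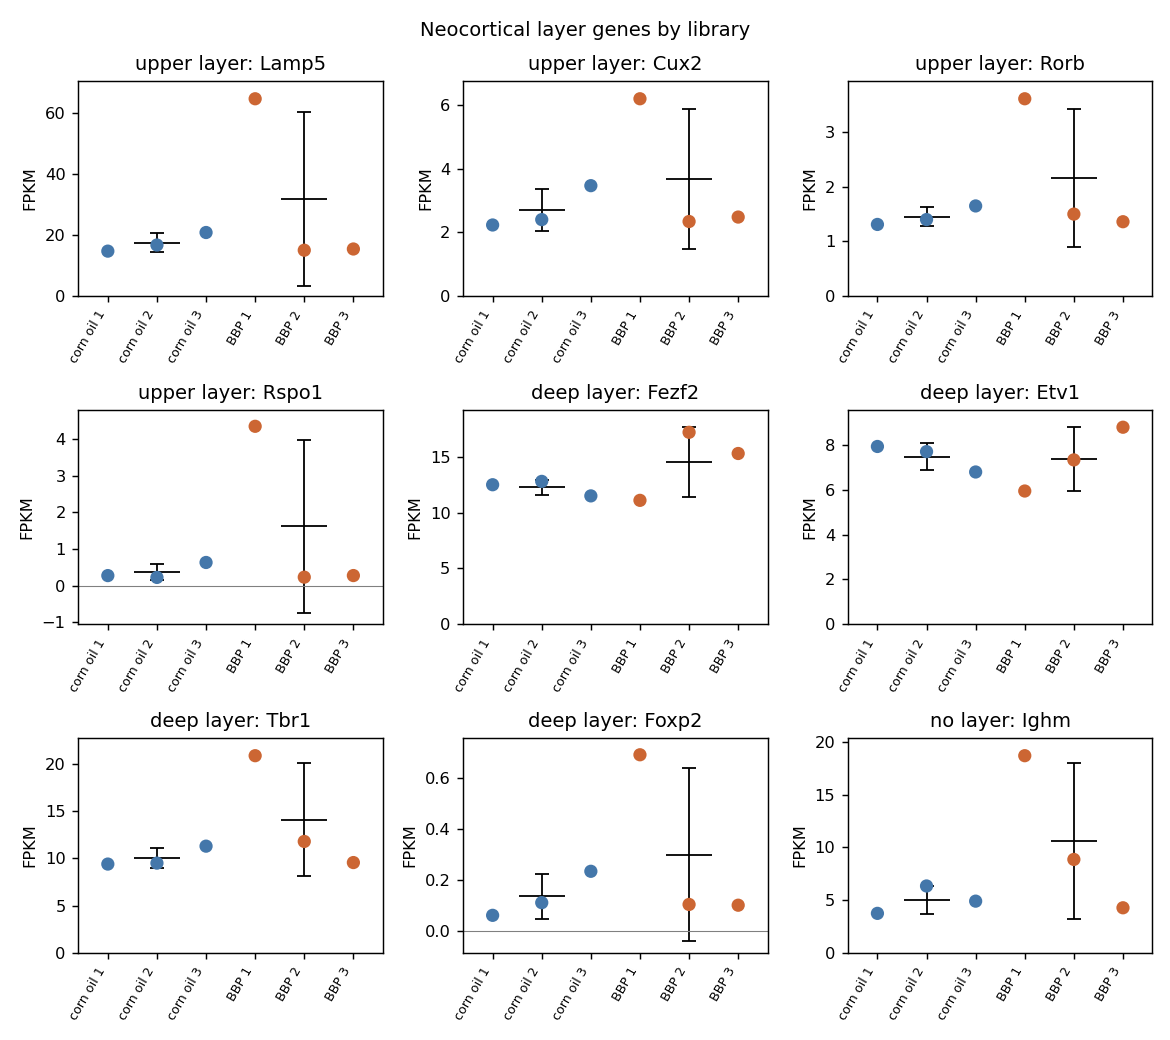
FPKM (y axis, linear) of the 9 genes in each of the 6 libraries (x axis; blue, corn oil; orange, BBP), with black dashes and bars for the mean and SD of each group of 3. BBP library 1 is the highest point for 7 genes and the lowest for Fezf2 and Etv1.

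Ighm, the constant region of the immunoglobulin mu heavy chain made by B lymphocytes, had 3.73, 6.33 and 4.89 FPKM in corn oil and 18.7, 8.85 and 4.26 FPKM in BBP. BBP library 1 was highest, and BBP library 2, not corn oil library 3, came second. Other genes of B lymphocytes were near 0 in every library: of 14 listed, 13 were in the table, all 13 had a mean under 1 FPKM, and 5 passed the filter on low counts. Their summed level was 1.13 to 2.21 FPKM in corn oil and 1.80, 2.19 and 1.00 FPKM in BBP libraries 1 to 3. Igkc, the kappa light chain, picked out after its values were seen, was at 0.0869 FPKM in BBP library 1 against 0.614 FPKM in corn oil library 3.

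A gene of the T cell receptor showed the same contrast. Trbc2, the constant region of the receptor's beta chain, was at 13.6 FPKM in BBP library 1 and at 0.217 to 0.751 FPKM in the others, while Trac, that of the alpha chain, was at 0.478 FPKM there and at 0.416 to 0.737 FPKM in the others. The 11 T lymphocyte genes summed to 16.8 FPKM in BBP library 1 and to 1.42 to 2.23 FPKM in the others, and 10 of them had a mean under 1 FPKM. Of the 4 tested, 3 were highest in BBP library 1 (24.3% of genes tested). Among genes chosen after their values were seen, Cd4, a coreceptor of helper T cells, was at 0.959 FPKM there (274 counts) against 0.0313 to 0.12 (9 to 37 counts). Trbc1, the other beta chain constant region, which shares much sequence with Trbc2, was at 0.911 FPKM against 0 to 0.177, and reads of the pair may be split between them. Cd3e, a core subunit of the receptor complex, was listed at 0 in each library but BBP library 3. The part of lymphocytes in the values of Ighm was not tested.

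Across the set, 7 of 9 genes were highest in BBP library 1, as were 24.3% of all genes tested. For 5 of 9 (Lamp5, Rorb, Rspo1, Foxp2 and Ighm) BBP library 1 was at least 2-fold above the highest of the other 5 libraries, which held for 0.935% of genes tested. The 2 genes that were lowest there compare with 17.7% of genes tested. Of these, Fezf2 was highest in BBP library 2, as were 16.2% of genes tested, and Etv1 in BBP library 3, as were 21.2%. The set was chosen with these values known, so nothing is read from these counts. As log2 ratios to the corn oil mean (TMM-scaled CPM, prior count 2), the upper layer genes had a median of 1.61, -0.09 and -0.16 in BBP libraries 1 to 3. The deep layer genes had 0.45, 0.20 and 0.06. Over all genes tested the median was 0.01 in each of these libraries.

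**Figure D2:**
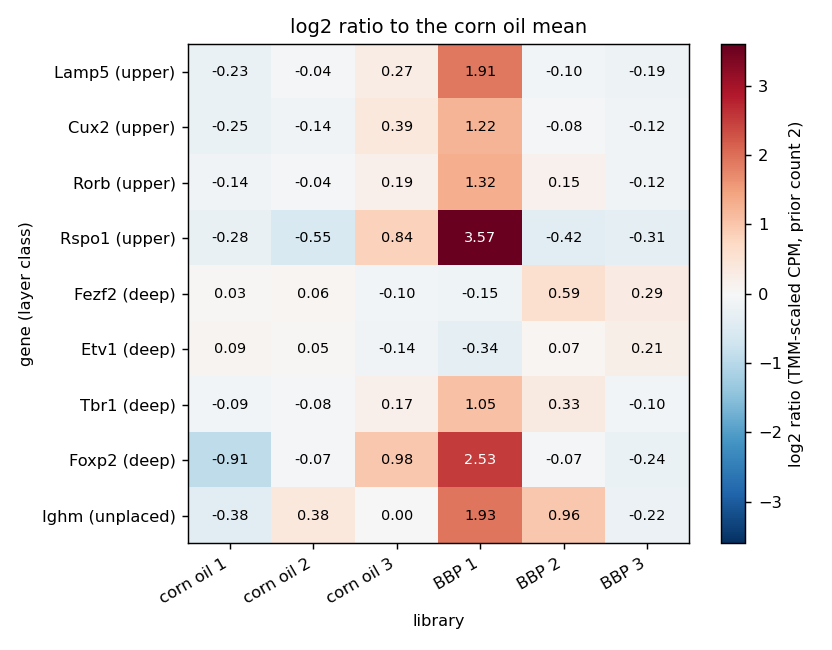
Log2 ratio of each gene (rows, with its layer class) to the mean of the corn oil libraries, for each library (columns). The column of BBP library 1 reaches 3.57 for Rspo1 and is below 0 for Fezf2 and Etv1.

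Corn oil library 3 carried a smaller difference of the same order. It was above both other corn oil libraries for 6 of 9 genes (38.1% of genes tested), and 5 of 9 genes were highest in BBP library 1 and second highest in corn oil library 3 (7.74% of genes tested). Its level over the mean of corn oil libraries 1 and 2 was 2.71-fold for Foxp2, 2.53-fold for Rspo1, 1.5-fold for Cux2, 1.32-fold for Lamp5, 1.22-fold for Rorb and 1.20-fold for Tbr1. The ratio was 0.973 for Ighm, 0.910 for Fezf2 and 0.870 for Etv1.

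Levels between genes are compared on the FPKM scale, which is per length of transcript. By the median of the 6 libraries, the order was Lamp5 (16 FPKM), Fezf2 (12.6), Tbr1 (10.4), Etv1 (7.53), Ighm (5.61), Cux2 (2.44), Rorb (1.45), Rspo1 (0.276) and Foxp2 (0.108). Each of Tbr1, Ighm, Cux2 and Rspo1 was above the next gene of this order in all 6 libraries. Lamp5 was above Fezf2 in 4 of 6 libraries, Etv1 above Ighm in 4, Fezf2 above Tbr1 in 5 and Rorb above Rspo1 in 5, so the order of these neighbours was not the same in every library. Rspo1 was above Rorb in BBP library 1 and below it in the other 5.

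Between the groups, the log2 fold change (BBP over corn oil) was above 0 for 8 of 9 genes and its median was 0.59, beside 52.4% positive and a median of 0.01 over all genes tested. With limma the median was 0.30 on log2(FPKM + 1), over the 7 genes with a mean of at least 1 FPKM. Rspo1 had 2.06 ± 1.05 (SE) and Foxp2 1.14 ± 0.78, which became 0.57 and 0.17 with limma on log2(FPKM + 1) without a filter. Ighm had 1.11 ± 0.47 and Lamp5 0.87 ± 0.52. Rorb had 0.59 ± 0.34, Tbr1 0.50 ± 0.26, Cux2 0.46 ± 0.36, Fezf2 0.27 ± 0.17 and Etv1 0.00 ± 0.14. In edgeR's quasi-likelihood test over all genes, 0 of 9 passed an adjusted p of 0.05 (0% of genes tested; lowest adjusted p of the 9, 0.953). At an unadjusted p under 0.05 there was 1 of 9, Ighm, which was higher in BBP (3.35% of genes tested, or 685 genes, in either direction, and 1.98% in the higher one). Limma on log2(FPKM + 1) called 0 genes (396 at an unadjusted p under 0.05), and DESeq2 called 3, none of them in the set. No gene of the 9 had its BBP values all above, or all below, its corn oil values (4.40% and 5.25% of genes tested).

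The differences between the groups rested largely on BBP library 1. The mean of Lamp5 was 17.3 ± 3.10 FPKM in the corn oil group (SD, n = 3) against 31.6 ± 28.6 FPKM under BBP, and that of Rspo1 0.378 ± 0.222 against 1.62 ± 2.36 FPKM. Without BBP library 1 the median log2 fold change of the 9 genes was 0.02, and 5 of 9 were positive. Lamp5 then stood at -0.16, Cux2 at -0.13, Rspo1 at -0.52 and Foxp2 at -0.37, all of them turned in sign. Etv1, just below 0 before, was at 0.14, while Rorb was at 0.02, Tbr1 at 0.13, Ighm at 0.45 and Fezf2 at 0.45 ± 0.11 (SE), with adjusted p-values of 0.70 or more in edgeR. At an unadjusted p under 0.05 there was then 1 of 9 (7% of genes tested). Without BBP library 2 the median was 0.76. Without BBP library 3 it was 0.84, and 5 of 9 genes had an unadjusted p under 0.05, where the share of genes tested rose to 7.26% (1530 of 21088) from 3.35%. In these 3 fits 0 of 9 passed after adjustment.

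**Figure D3:**
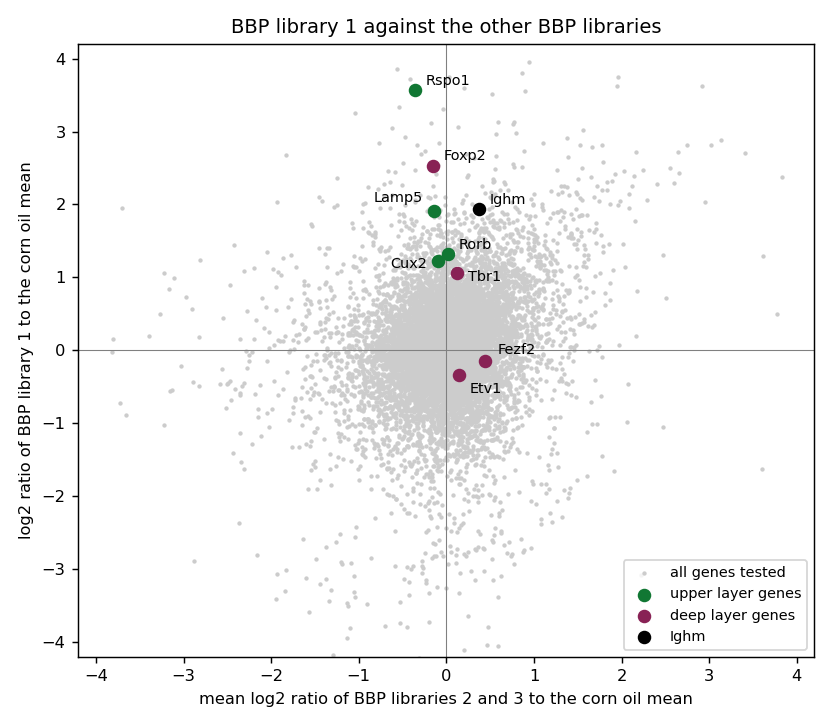
Log2 ratio to the corn oil mean in BBP library 1 (y axis) against the mean of that ratio in BBP libraries 2 and 3 (x axis), for all genes tested (grey) and the 9 genes (coloured by layer); 20 genes lie outside the axes. The 4 upper layer genes are high on the y axis and near 0 on the x axis, and Fezf2 and Etv1 lie just below 0 on the y axis.

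Other genes of the upper layers differed among themselves in BBP library 1. Of 18 such genes, all tested, 13 were positive on the log2 scale between the groups (52.4% of genes tested). Their median was 0.22, and 0 passed edgeR's test. The median without BBP library 1 was 0.03. In that library, 9 of 18 were the highest of the 6 libraries (24.3% of genes tested) and 4 were the lowest (17.7%). Pou3f2, a POU transcription factor of upper layer neurons, was at 3.77 FPKM there and at 1.35 to 1.91 FPKM in the others, and Cux1, the paralog of Cux2, was at 3.13 against 1.61 to 1.96 FPKM.

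In the list of other upper layer genes, the 4 with the highest mean FPKM in these libraries also differed among themselves. Calb1, the calcium-binding protein calbindin, which dentate granule and CA1 neurons also make, was at 24.1 FPKM in BBP library 1 and at 24.0 to 30.3 FPKM in the others. Pou3f1 was at 6.94 FPKM in BBP library 1 against 7.76 to 10.3, and Pou3f3 at 10.8 against 9.16 to 10.9. Rasgrf2, an exchange factor for Ras, was highest in BBP library 1, at 11.5 against 6.35 to 9.15. Of this list, 3 genes also stand in a list of hippocampal neurons, Pou3f1 and Nectin3 among them.

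Of 26 other deep layer genes 25 were in the table and tested. Of these, 18 were above 0 on the log2 scale (52.4% of genes tested), and 0 passed edgeR's test. The median was 0.08 (-0.05 without BBP library 1). In BBP library 1, 10 of 25 were the highest of the 6 libraries (24.3% of genes tested) and 6 were the lowest (17.7%). Crym, a thyroid hormone-binding protein, was at 28.2 FPKM in BBP library 1 and 27.0 in BBP library 2, against 48.6 to 63.4 FPKM in the others. Rprm was at 29.0 FPKM in BBP library 1 and 31.2 in corn oil library 3, against 11.1 to 18.9 FPKM in the others.

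Nr4a2, an orphan nuclear receptor of layer 6b and the claustrum, was at 14.5, 15.7 and 14.0 FPKM in the BBP libraries and at 13.1, 13.0 and 12.8 in corn oil, groups that do not overlap (4.40% of genes tested in this direction), with a log2 fold change of 0.21 ± 0.09 (SE). Ldb2, a LIM domain-binding protein, had a log2 fold change of 0.27 ± 0.13, and Parm1 one of 0.08 ± 0.13. Cplx3, a complexin of layer 6b neurons and of Lamp5 interneurons, chosen after its values were seen, was at 8.63 FPKM in BBP library 1 and 4.57 in corn oil library 3, against 2.84 to 4.09 FPKM in the others.

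Markers of the striatum were high in BBP library 1, as the upper layer genes of the set were, while Fezf2 and Etv1 were not. All 18 striatal genes were highest in BBP library 1 (24.3% of genes tested). Their median log2 ratio to the corn oil mean was 1.68 there, against -0.08 and -0.34 in the other BBP libraries. Their summed level was 239 FPKM in BBP library 1, 116 in corn oil library 3 and 69.5 to 73.8 FPKM in the other 4 libraries. In corn oil library 3, 11 of 18 were above both other corn oil libraries (38.1% of genes tested), with a median log2 ratio of 0.25. Penk, which encodes enkephalin, was at 72.1 FPKM in BBP library 1 and 42.5 in corn oil library 3 against 12.4 to 18.6, and Ppp1r1b, the dopamine-regulated phosphatase inhibitor DARPP-32, was at 51.4 FPKM in BBP library 1 against 15.7 to 17.2 in the libraries other than corn oil library 3. The part of these neurons in the values of Foxp2 was not tested.

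Genes of the hippocampal formation went the other way in BBP library 1. Of all genes tested, 17.7% were lowest in that library. Of 9 dentate granule genes 7 were lowest there, with a median log2 ratio of -0.95, of 10 CA2 and CA3 genes 9 (-0.87), of 8 CA1 genes 4 (-0.49) and of 5 subiculum genes 5 (-0.33). In corn oil library 3 these medians were -0.42, -0.19, -0.09 and -0.02. Calb2 was at 9.71 FPKM in BBP library 1 against 13.9 to 23.0, Ccn3 at 28.5 against 28.2 to 49.7, Tshz2 at 4.16 against 4.65 to 8.56 and Nts, which encodes neurotensin, at 4.24 against 4.42 to 5.91 FPKM. Pcp4, listed for CA2, was the exception, at 226 FPKM in BBP library 1 against 95.1 to 148. Fezf2 and Etv1, at log2 ratios of -0.15 and -0.34, thus lay on the side of the hippocampal lists. Whether this accounts for their values was not tested.

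**Figure D4:**
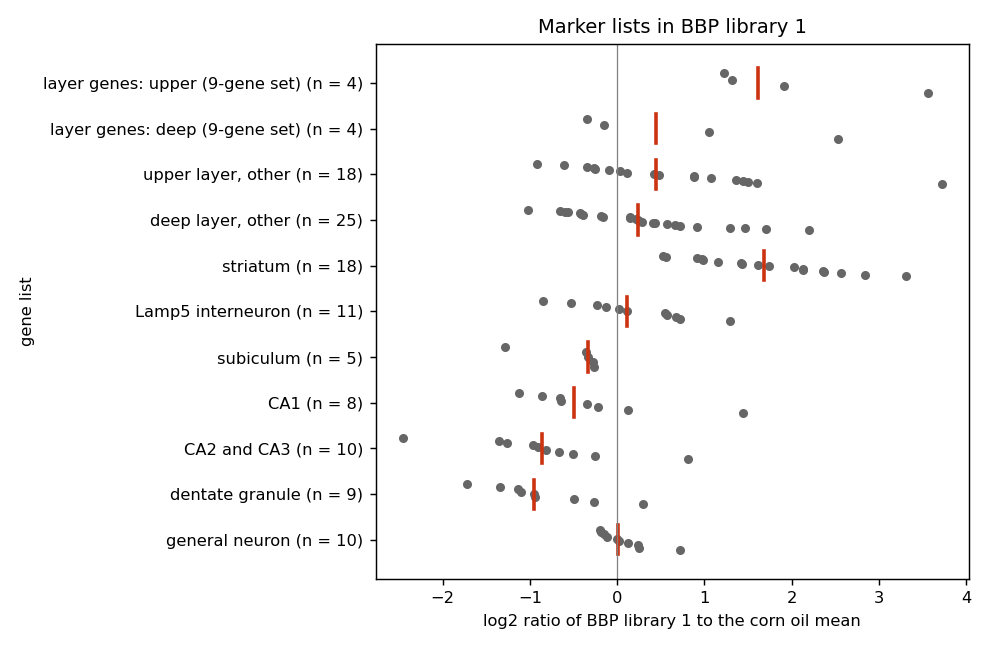
Log2 ratio of BBP library 1 to the corn oil mean (x axis) for each tested gene of the lists named on the y axis (grey points), with the median of each list as a red bar. The upper layer genes of the set and the striatal genes have medians of 1.61 and 1.68, and the 4 hippocampal lists lie below 0.

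Interneuron genes gave no common direction. Of 11 genes shared with Lamp5 interneurons 6 were highest (24.3% of genes tested) and 3 lowest (17.7%) in BBP library 1. Their median log2 ratio was 0.11 there. Npy, which encodes neuropeptide Y, was at 104 FPKM there against 52.2 to 79.5, and Gad1, the enzyme of GABA synthesis, at 41.3 against 28.5 to 39.1 FPKM. Genes of neurons in general had a median of 0.01 in that library, Snap25 standing at 333 FPKM against 271 to 305 and Slc17a7 at 210 against 233 to 251 FPKM.

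Genes of non-neuronal cells were followed in the same library. The oligodendrocyte list had a median log2 ratio of 0.56, 0.56 and -0.05 in BBP libraries 1 to 3, with Mbp at 320, 335 and 210 FPKM in BBP libraries 1 to 3 and at 188 to 253 in corn oil. Endothelial genes stood at 0.32 in BBP library 1, microglia genes at 0.15, astrocyte genes at 0.12 and choroid plexus genes at -0.84. The last were at 0.67 in corn oil library 3, the library with the second highest upper layer genes. The part of these cells in the values of the layer genes was not tested.

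Outside the set, the genes whose profile was most like that of the 9 genes were ranked by distance. The profile was the median, over the 7 of them with a mean of at least 1 FPKM (6 layer genes and Ighm), of log2(FPKM + 1) centred on the mean of each gene, and it stood at 0.80 in BBP library 1 and from -0.28 to -0.01 in the others. Of 11726 annotated genes at that level, the 10 nearest in Euclidean distance over the 6 libraries were Mapk6, Plcb4, Chn2, Syndig1l, Afap1l1, Lrrc75a, Tmem132d, Kazald1, Pde7b and Stard10, at distances of 0.113 to 0.207. Mapk6, an atypical MAP kinase, was at 8.44 FPKM in BBP library 1 and at 3.64 to 4.44 FPKM in the others. Plcb4, a phospholipase C, was at 5.94 against 2.06 to 2.59 FPKM, and Syndig1l, one of the striatal genes above, at 4.08 against 1.5 to 2.22 FPKM.

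The 7 genes that make up the profile lay at unequal distances from it, which describes their spread and is no measure of likeness, since each helped to set it. Tbr1 stood at 0.102, Rorb at 0.124 and Cux2 at 0.332, and Lamp5, with the same direction and a larger swing, at 0.963. Fezf2 at 1.20 and Etv1 at 1.24 were the farthest. Of the 2 genes not used, Foxp2 was at 0.364 and Rspo1 at 1.04.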

How the data were processed

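Polyadenylated RNA of 6 hippocampal libraries, 3 from corn oil and 3 from BBP mice, was selected with oligo(dT) and sequenced as strand-marked paired ends with molecular identifiers, per the labels' protocols. Tools listed in the submitters' processing notes, whose roles are not stated, include HISAT2 2.2.1 and cutadapt 1.9 as well as StringTie 2.1.6 and UMI-tools. The build listed is mm10. Per the file headers, the deposited table holds estimated counts and FPKM for each gene and library. The deposited estimated counts are whole numbers and were used as given. In each library 4 was the most frequent count above 0, so 1 count need not be 1 fragment. The strand setting of the counting is not given in the sources used here.

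The fit was that of edgeR 4.0.16 under R 4.3.3, with TMM scaling, filterByExpr and a quasi-likelihood test of treatment alone, and p-values were adjusted by Benjamini-Hochberg over 20428 genes. Each SE was derived from the fold change and its F statistic. Alternatives used DESeq2 1.42.0 and limma 3.58.1 on log2(FPKM + 1). The scripts were tested on simulated data. Figures were drawn with matplotlib 3.10.9. The 9 genes, the lists of other genes and the motifs were chosen with earlier results of these data known. Named were the 9 genes, the 4 genes of highest FPKM and the 2 of smallest p of each other layer list, the 2 of highest FPKM of the other lists, and the 10 nearest profiles. Some genes are not reported here, and genes named outside this rule are marked in the text.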

Additional observations from a re-analysis of the deposited data

How the results depend on the processing

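The number of genes called, the median log2 fold changes of the 9 genes and of the other upper and deep layer genes, and the log2 fold change of each of the 9 were recomputed under 15 alternatives, 9 other settings and 6 fits without 1 library. Rspo1 had a value in 13 of them and Foxp2 in 12. Levels and ratios of single libraries, the values of the other lists and the profile distances were not recomputed. The count of 0 genes called became 3 with DESeq2 and 0 to 3 in the fits without 1 library, with 1 when corn oil library 2 was left out and 3 when BBP library 1 was, and it was 0 in the other settings. The 685 genes at an unadjusted p under 0.05 became 393 when corn oil library 1 was left out, 1475 when BBP library 1 was and 1530 when BBP library 3 was. The median log2 fold change of the 9 genes was 0.02 to 0.84 in the fits without 1 library, that of the other upper layer genes 0.03 to 0.32 and that of the other deep layer genes -0.05 to 0.16. The lowest of each was the fit without BBP library 1. With limma on log2(TPM + 1) the upper and deep layer medians were 0.06 and -0.01, and the cause was not tested. Among single genes, the sign turned without BBP library 1 for Lamp5 (-0.16), Cux2 (-0.13), Rspo1 (-0.52), Foxp2 (-0.37) and Etv1 (0.14), and Etv1 also turned without corn oil library 1 (0.04) or 2 (0.02). Over the fits without 1 library the ranges were -0.16 to 1.21 for Lamp5, -0.13 to 0.69 for Cux2, -0.52 to 2.63 for Rspo1, -0.37 to 1.78 for Foxp2 and -0.12 to 0.14 for Etv1. With limma the median of the 9 genes was 0.30 on log2(FPKM + 1), 0.40 on log2(FPKM + 0.1) and 0.36 on log2(TPM + 1). In the limma fits with a minimum mean FPKM of 1, Rspo1 and Foxp2 were not tested, and Foxp2 was not in that on TPM.

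The replicate numbers of the titles were not taken to pair the libraries, since deviations from the group means correlated at -0.077, 0.076 and -0.102 within the same numbers. With the replicate number as a block, 0 genes were called, and the medians of the 9 genes, the other upper and the other deep layer genes were 0.44, 0.18 and 0.04, with Rspo1 at 0.88 and Foxp2 at 0.61. The levels of Rspo1 and Foxp2 outside BBP library 1 are the ones most limited by depth.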
